A study of Mus musculus with 14 samples.

Results

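The D-type cyclins and the CDK (cyclin-dependent kinase) inhibitors were followed by RNA-seq in mouse hepatocellular carcinoma (HCC) cells that lacked ATP-citrate lyase (ACLY), acyl-CoA synthetase short-chain family member 2 (ACSS2) or both. The group was chosen by gene symbol and holds 10 of the 24972 symbols in the deposited table, namely *Ccnd1*, *Ccnd2*, *Ccnd3*, *Cdkn1a*, *Cdkn1b*, *Cdkn1c*, *Cdkn2a*, *Cdkn2b*, *Cdkn2c* and *Cdkn2d*. All 10 symbols were found, and 9 were tested because their mean over the libraries reached 10 normalized counts. The exception was *Cdkn1c*.

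The libraries numbered 4 for WT, 4 for ACLY KO, 3 for ACSS2 KO and 3 for DKO1, all from cells kept for 24 hours in DMEM with 10% serum. All cells descend from Acly f/f tumor cells of mice given diethylnitrosamine (DEN). In the ACLY KO cells Acly was removed by adenoviral Cre, and these cells came from a single-cell clonal population. The WT and ACLY KO cells carried an empty LentiCRISPR v2 vector as bulk populations. The ACSS2 KO cells and the DKO1 cells were single-cell clones made with a guide to the first exon of Acss2, in the WT and in the ACLY KO background. Each edited genotype was therefore a single clone or descended from one, and the effect of a genotype cannot be told apart from that of its clone. The study's methods state that the RNA-seq was not repeated as an independent experiment, so p-values measure the spread between these libraries, which may be technical.

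D-type cyclins bind and activate CDK4 and CDK6, which phosphorylate the retinoblastoma protein RB and so release E2F transcription factors at the G1/S transition. Their transcription responds to growth signals, and cyclin D1 is the D-type cyclin best known from hepatocyte proliferation and liver cancer. CDK inhibitors belong to 2 families. The INK4 proteins p16 (*Cdkn2a*), p15 (*Cdkn2b*), p18 (*Cdkn2c*) and p19INK4d (*Cdkn2d*) bind CDK4 and CDK6 themselves, while the CIP/KIP proteins p21 (*Cdkn1a*), p27 (*Cdkn1b*) and p57 (*Cdkn1c*) bind cyclin and CDK complexes, above all those with CDK2. *Cdkn2a* also encodes p19Arf from an upstream first exon, a protein that restrains MDM2.

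In GRCm38 (GENCODE vM21) *Ccnd1* lies on chromosome 7 from 144929931 to 144939925 and *Cdkn1c* on the same chromosome from 143458339 to 143461050. *Ccnd2* (127125162 to 127152193) and *Cdkn1b* (134920401 to 134925513) lie on chromosome 6, and *Ccnd3* (47505051 to 47599691) and *Cdkn1a* (29090976 to 29100727) on chromosome 17. *Cdkn2a* (89274471 to 89294653), *Cdkn2b* (89306299 to 89311039) and *Cdkn2c* (109660876 to 109667189) lie on chromosome 4, the first 2 side by side. *Cdkn2d* lies on chromosome 9 from 21288410 to 21291407. The deposited values are given per gene symbol, so they do not separate the p16 and p19Arf transcripts of *Cdkn2a* or the transcripts from the 2 *Cdkn1a* starts.

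RefSeq promoter sequences for GRCm38.p6 held 11 starts of 7 of the 10 members, with no entry for *Ccnd1*, *Ccnd2* or *Cdkn1c*. The 250 bases before each start were searched on both strands for 7 motifs, of which TATAAA stood in 12.4% of 32841 such windows of all genes, GGGCGG (GC box) in 32.7%, CACGTG in 6.02%, TGACGT (part of a CRE) in 6.47%, TGANTCA in 6.75%, GCGGGAA (an E2F motif) in 3.82% and CCAAT in 33.9%. Among the 11 windows, 7 held GGGCGG, 2 the E2F motif, 2 the CRE part, 3 CCAAT and 0 any of the other 3 motifs. The windows below are shown because *Cdkn2b* was called in both ACLY-deficient genotypes and its neighbor *Cdkn2a* was not, and because *Cdkn1a* was the inhibitor that differed most between DKO1 and ACLY KO. Capitals mark any of the motifs on either strand, each sequence is written 5′ to 3′ on the strand of its gene, and bases in an annotated exon of that gene were left out.
Cdkn2a, before the upstream (p19Arf) start, chr4:89294654-89294869, minus strand: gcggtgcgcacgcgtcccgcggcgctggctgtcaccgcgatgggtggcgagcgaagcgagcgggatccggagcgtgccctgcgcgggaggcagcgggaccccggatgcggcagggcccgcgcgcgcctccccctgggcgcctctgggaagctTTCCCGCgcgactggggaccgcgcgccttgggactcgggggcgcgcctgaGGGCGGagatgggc
Cdkn2a, before the downstream (p16) start, chr4:89282193-89282442, minus strand: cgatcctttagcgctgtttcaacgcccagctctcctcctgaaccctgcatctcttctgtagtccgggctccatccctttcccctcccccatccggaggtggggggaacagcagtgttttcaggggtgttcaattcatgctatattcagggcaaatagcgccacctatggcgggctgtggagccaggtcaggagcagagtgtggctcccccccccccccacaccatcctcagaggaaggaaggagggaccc
Cdkn2b, chr4:89311040-89311282, minus strand: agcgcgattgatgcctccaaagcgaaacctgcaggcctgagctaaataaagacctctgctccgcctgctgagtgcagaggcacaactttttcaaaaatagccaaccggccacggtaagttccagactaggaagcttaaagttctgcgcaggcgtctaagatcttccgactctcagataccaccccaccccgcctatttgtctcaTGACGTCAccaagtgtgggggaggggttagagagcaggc
Cdkn1a, before the upstream start, chr17:29090729-29090975, plus strand: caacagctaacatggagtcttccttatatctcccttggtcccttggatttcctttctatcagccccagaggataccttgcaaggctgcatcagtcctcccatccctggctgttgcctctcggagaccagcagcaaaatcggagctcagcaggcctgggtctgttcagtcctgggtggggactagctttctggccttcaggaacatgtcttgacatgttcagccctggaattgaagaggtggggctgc
Cdkn1a, before the downstream start, chr17:29093519-29093768, plus strand: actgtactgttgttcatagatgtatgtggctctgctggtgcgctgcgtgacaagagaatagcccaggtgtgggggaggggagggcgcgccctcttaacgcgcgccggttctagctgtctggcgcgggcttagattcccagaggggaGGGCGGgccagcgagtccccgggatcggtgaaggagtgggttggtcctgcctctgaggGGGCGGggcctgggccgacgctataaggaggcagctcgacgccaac
The full 250 bases before the p19Arf start contained 78.4% G and C with 40 CpG dinucleotides, against 60.0% and 7 before the p16 start and 53.6% and 12 before the *Cdkn2b* start. Before the 2 *Cdkn1a* starts the content was 54.0% with 2 CpG and 64.8% with 19 CpG. Only *Cdkn2b*, among the windows printed, held TGACGT, as the palindrome TGACGTCA, which counts once on each strand.

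The deposited values are DESeq-normalized counts with library totals of 23565707 to 26946164, and the depth estimated from low values was 19164067 to 33522192 reads. This depth is rough, since the commonest low value was taken as 1 read. Only 34.1% to 61.1% of low values in a library lay near its multiples. Acly and Acss2 were measured to check the genotypes. Acly had a log2 fold change against WT of -2.59 in ACLY KO and -2.67 in DKO1, and Acss2 one of -0.84 in ACSS2 KO but 1.59 in ACLY KO and 1.16 in DKO1, so Acss2 mRNA does not mark its loss in DKO1. Of 10 hepatocyte and HCC markers 6 reached a mean of 10. The epithelial keratin genes Krt8 and Krt18 had 11840 normalized counts or more in every library, whereas Apoa1 was between 0 and 1.497 and Serpina1a between 0 and 2.57. The others followed no common pattern across genotypes. For Alb the WT mean was 31.4, against 23.4 in ACLY KO, while ACSS2 KO had 134 and DKO1 11.3. Hnf4a was at 172 in WT and at 28.7, 39.8 and 22.4 in the knockouts in the same order, and Afp at 37.0, 127, 34.3 and 210. In WT, ACLY KO, ACSS2 KO and DKO1, Apoa2 was at 15.2, 36.9, 20.1 and 34.0, and Ttr at 1.78, 4.59, 31.7 and 6.08. Gpc3 was low throughout, at 5.30, 5.66, 8.74 and 4.98, with SDs from 2.07 to 3.42. All 5 biliary markers reached a mean of 10, and they summed to 35800 to 48430 in WT against 30250 to 32240 in ACLY KO, while ACSS2 KO had 40070 to 43260 and DKO1 had 44280 to 70630, most of it Spp1, Krt7 and Krt19. The leukocyte list, mostly Cd68, summed to 39.8 to 76.2 in WT against 61.6 to 102 in ACLY KO, while ACSS2 KO had 26.3 to 52.6 and DKO1 had 83.8 to 134, with Cd3e at or near 0 and Ptprc at means of 4.45, 11.7, 2.76 and 18.4. The endothelial list summed to 18.6 to 28.3, 77.1 to 92.3, 10.5 to 18.3 and 40.2 to 51.2 in that order. The 7 fibroblast genes summed to 618 to 729 in WT, 2933 to 3297 in ACLY KO, 1434 to 1490 in ACSS2 KO and 1227 to 1523 in DKO1, and the part of these marker differences in the results below was not tested. In bulk RNA, fewer cells with a transcript and less of it in each cell cannot be told apart. Within a genotype, DKO1 replicate 4 and WT replicate 2 stood apart by transcript length, with Spearman correlations of -0.70 and -0.61 between length and the library's deviation across 12577 genes, which are not independent replicates. ACLY KO replicate 4 (-0.59) and ACSS2 KO replicate 1 (-0.54) were close to WT replicate 2 in this measure, and the other 10 libraries had positive values of 0.048 to 0.66. Each deviation was taken from the mean of the library's own genotype. A strongly negative library therefore pushes the others of its genotype toward positive values, and their sign alone shows no trend of their own. Earlier results of these data had singled out the first 2 libraries, and only those were left out together.

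This trend reached the members. In DKO1 replicate 4 *Cdkn2a* was 1.40 above the mean of the other DKO1 libraries on the log2 scale, *Cdkn2b* 1.09, *Cdkn2d* 0.71 and *Cdkn2c* 0.43, whereas *Ccnd1* differed by -0.14 and *Ccnd2* by -0.23. In WT replicate 2 the differences from the other WT libraries were 0.56 for *Cdkn2a*, 0.59 for *Cdkn2b*, 0.48 for *Cdkn2d* and 0.44 for *Cdkn2c*. ACLY KO replicate 4 and ACSS2 KO replicate 1 also had the highest *Cdkn2a*, *Cdkn2b*, *Cdkn2c* and *Cdkn2d* of their genotypes. Results for these genes are therefore given with and without DKO1 replicate 4 and WT replicate 2. ACLY KO replicate 4 and ACSS2 KO replicate 1 were left out only singly, so their part in these results is less well described.

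**Figure D1:**
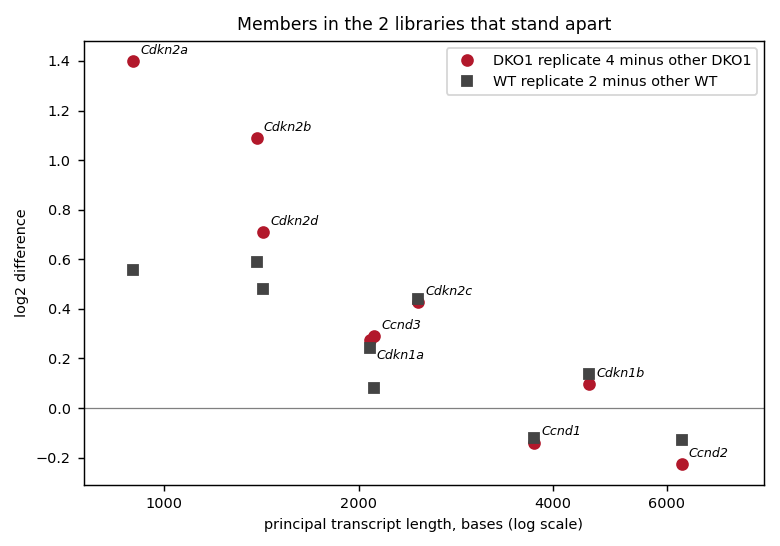
Log2 difference of DKO1 replicate 4 from the other DKO1 libraries (circles, labeled with the gene) and of WT replicate 2 from the other WT libraries (squares) against the length of the principal transcript in bases on a log axis, for the 9 members tested. The members with the shortest transcripts, Cdkn2a (895 bases), Cdkn2b (1390) and Cdkn2d (1423), lie highest in both libraries, and Ccnd1 (3740) and Ccnd2 (6330) lie below 0 in both.

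Levels were compared between genes only per kilobase of the principal annotated transcript. In WT, *Ccnd1* was the highest, at 5010 ± 222 normalized counts per kilobase (SD, n = 4), followed by *Ccnd2* at 1650 ± 93.7, *Cdkn2a* at 1370 ± 302 and *Ccnd3* at 1170 ± 63.9. *Cdkn2c* (896 ± 158), *Cdkn1b* (564 ± 32.5), *Cdkn2d* (518 ± 96.9) and *Cdkn2b* (314 ± 71.3) came next. *Cdkn1a* was at 142 ± 13.7, and *Cdkn1c* was listed at 0 in 12 of 14 libraries. *Cdkn2a* did not differ from either of its neighbors in this order beyond its spread, nor did *Cdkn1b* from *Cdkn2d*. The place of *Ccnd3* depended on the length used, since its annotated exons together span 8775 bases and its principal transcript 2113. Over all exons it stood at 281 ± 15.4 per kilobase in WT, within the spread of *Cdkn2b* (314 ± 71.3).

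Among D-type cyclin mRNA per kilobase of principal transcript, *Ccnd1* made up 64.0% ± 0.97 in WT (SD, n = 4), 60.0% ± 0.71 in ACLY KO (n = 4), 57.2% ± 1.21 in ACSS2 KO (n = 3) and 60.2% ± 2.09 in DKO1 (n = 3). The share of *Ccnd2* was 21.0% ± 0.55 in WT and 17.1% ± 1.20 in DKO1. That of *Ccnd3* was 14.95% ± 1.19 in WT and 22.7% ± 3.29 in DKO1. Per kilobase of all exons the *Ccnd1* share was 74.1% ± 0.56 in WT and 73.8% ± 0.67 in DKO1, and that of *Ccnd3* 5.25% ± 0.47 in WT and 8.47% ± 1.46 in DKO1, so the lower *Ccnd1* share in DKO1 depended on the length used. Summed without regard to length, the 3 cyclins had 31620 ± 1290 normalized counts in WT against 27130 ± 1130 in ACLY KO, while ACSS2 KO had 29820 ± 435 and DKO1 had 18530 ± 807, so every DKO1 library (17620 to 19160) lay below every library of the other genotypes (25830 or more). These sums were not tested.

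**Figure D2:**
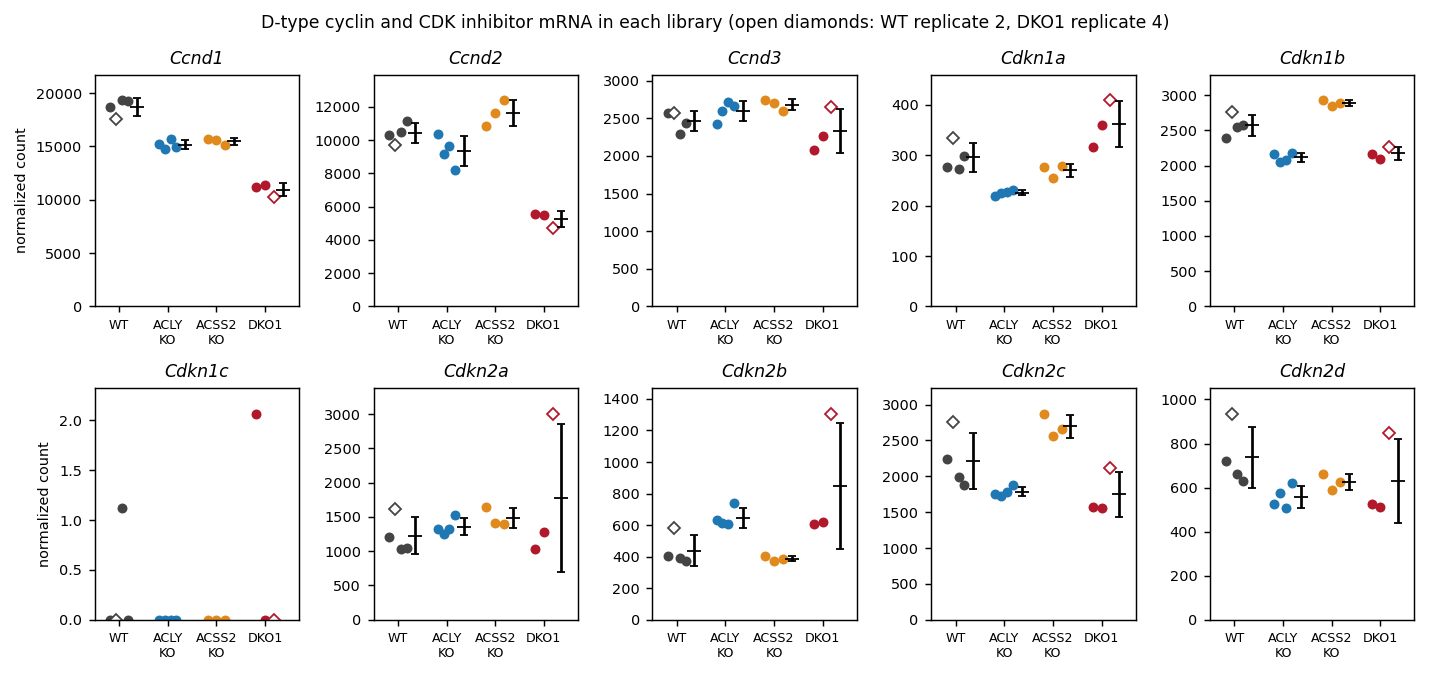
Normalized counts of the 10 members (one panel each, linear axis from 0) in each library of the 4 genotypes, with mean and SD beside the points except for Cdkn1c, and open diamonds for WT replicate 2 and DKO1 replicate 4. The DKO1 points lie lowest for Ccnd1 and Ccnd2, while for Cdkn2a and Cdkn2b a single DKO1 library, replicate 4, lies far above the other 2.

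Tests used limma on log2(value + 1) with Benjamini-Hochberg adjustment over the 12711 genes tested, and an adjusted p-value under 0.05 made a call. Calls were common in these data. In ACLY KO against WT 48.5% of all genes tested were called (23.8% higher, 24.7% lower), and so were 4 of 9 members (1 higher, 3 lower). In ACSS2 KO against WT 26% of genes (15.1% higher, 11% lower) and 2 members (1 higher, 1 lower) were called. In DKO1 against WT 56% of genes (27.9% higher, 28.1% lower) and 6 members (2 higher, 4 lower) were called. DKO1 against ACLY KO called 27.9% of genes (14.3% higher, 13.6% lower) and 3 members (1 higher, 2 lower), and DKO1 against ACSS2 KO called 53.7% of genes (25.9% higher, 27.8% lower) and 6 members (2 higher, 4 lower). The member counts were thus near the background, and the results rest on individual genes and their sizes. Under the study's own limits, an absolute log2 fold change over 1.5 with an adjusted p-value under 0.01, 0 members were called in any comparison, against 8.8%, 2.42%, 9.84%, 2.06% and 11.3% of genes in these 5 comparisons. At an unadjusted p under 0.05 limma counted 6, 3, 6, 3 and 7 members in the same order. The share of all genes at that limit was not counted. It is at least the share called above, so these counts are not read as a result about the members.

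**Figure D3:**
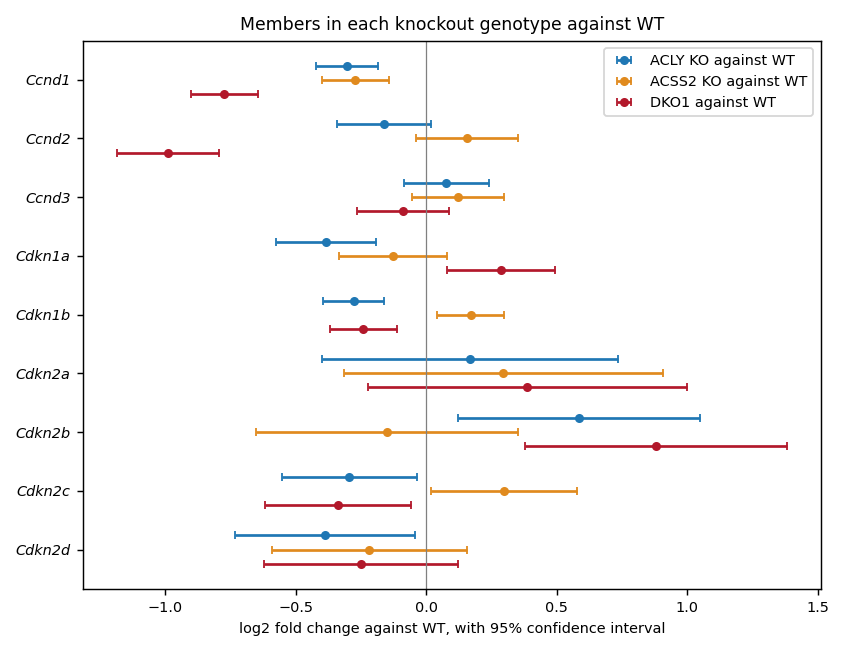
Log2 fold changes against WT of the 9 members tested in ACLY KO, ACSS2 KO and DKO1, with 95% confidence intervals from limma. The DKO1 intervals of Ccnd1 (-0.90 to -0.65) and Ccnd2 (-1.19 to -0.80) lie entirely below those of ACLY KO and ACSS2 KO, and the 3 comparisons share the WT libraries.

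*Ccnd1*, which encodes cyclin D1, was lower in every knockout genotype than in WT and lowest in DKO1. The WT libraries had 18710, 17560, 19333 and 19302 normalized counts, and the DKO1 libraries had 11201, 11397 and 10257. The single knockouts lay between them, at 15271, 14779, 15706 and 14972 in ACLY KO and at 15746, 15636 and 15132 in ACSS2 KO. No DKO1 library overlapped any other genotype, and the single knockouts overlapped each other but not WT. Against WT the mean fell by 18.9% in ACLY KO (log2 fold change -0.30, SE 0.055, adjusted p = 4.8e-04), by 17.2% in ACSS2 KO (-0.27, SE 0.059, adjusted p = 0.0042). In DKO1 it fell by 41.5% (-0.77, SE 0.059, adjusted p = 2.3e-07). DKO1 was also below ACLY KO (log2 fold change -0.47, SE 0.059, adjusted p = 8.2e-05) and below ACSS2 KO (-0.50, SE 0.063, adjusted p = 2.0e-05). Without DKO1 replicate 4 these were -0.73 against WT, -0.43 against ACLY KO and -0.46 against ACSS2 KO, all called. The smaller differences of the single knockouts depended on scaling. With quantile normalization they were -0.13 (adjusted p = 0.19) and -0.095 (adjusted p = 0.48), and with equal library totals, under which the median of all genes stood at 0.10 and 0.11, they were -0.19 (adjusted p = 0.056) and -0.17 (adjusted p = 0.17).

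*Ccnd2*, which encodes cyclin D2, had the widest range of genotype means among the members, 1.15 on the log2 scale. It had 10295, 9733, 10497 and 11170 normalized counts in WT, 10374, 9163, 9650 and 8192 in ACLY KO, and 10835, 11655 and 12403 in ACSS2 KO. In DKO1 it had 5536, 5506 and 4717. All 3 DKO1 libraries lay below all 11 others, while both single knockouts overlapped WT. The DKO1 mean was 0.504 times the WT mean (log2 fold change -0.99, SE 0.090, adjusted p = 1.1e-06), 0.562 times the ACLY KO mean (-0.83, SE 0.090, adjusted p = 2.5e-05) and 0.452 times the ACSS2 KO mean (-1.15, SE 0.096, adjusted p = 4.5e-07). Neither single knockout was called against WT, with intervals of the log2 fold change of -0.34 to 0.020 in ACLY KO and -0.038 to 0.35 in ACSS2 KO. Without DKO1 replicate 4 the difference from ACLY KO was -0.75 (adjusted p = 3.2e-05), and after the transcript length correction it was -0.67 (adjusted p = 3.2e-05).

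*Ccnd3*, which encodes cyclin D3, varied least, with a range of genotype means of 0.21 on the log2 scale. Its mean was 2467 ± 135 (SD, n = 4) in WT, 2602 ± 132 (n = 4) in ACLY KO, 2681 ± 71.9 (n = 3) in ACSS2 KO and 2329 ± 293 (n = 3) in DKO1. It passed the test in none of the 5 comparisons, with log2 fold changes of 0.077, 0.12 and -0.089 against WT in ACLY KO, ACSS2 KO and DKO1 (adjusted p = 0.43, 0.31 and 0.37 from limma) and of -0.17 and -0.21 in DKO1 against ACLY KO and ACSS2 KO (adjusted p = 0.15 and 0.056). Much of the DKO1 spread came from replicate 4, at 2649 against 2075 and 2261. Without it DKO1 was lower than WT (-0.19, adjusted p = 0.027), ACLY KO (-0.26, adjusted p = 0.0087) and ACSS2 KO (-0.31, adjusted p = 0.0021). With equal library totals the single knockouts were higher than WT, by 0.19 in ACLY KO (adjusted p = 0.021) and 0.23 in ACSS2 KO (adjusted p = 0.021), where the median of all genes stood at 0.10 and 0.11.

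*Cdkn1a*, which encodes p21, a CDK inhibitor and p53 target, moved down in ACLY KO and up in DKO1. The WT libraries had 277, 335, 272 and 299 normalized counts, ACLY KO 219, 225, 227 and 231, ACSS2 KO 276, 255 and 279, and DKO1 317, 361 and 409. ACLY KO lay below and DKO1 above both other genotypes, except that DKO1 replicate 1 lay below WT replicate 2. In ACLY KO the mean fell by 23.7% against WT (log2 fold change -0.38, SE 0.089, adjusted p = 0.0028), a call that 25 alternatives kept, the study's limits on size not counted among them. DKO1 had 1.61 times the ACLY KO mean (0.67, SE 0.096, adjusted p = 2.2e-04) and 1.34 times the ACSS2 KO mean (0.41, SE 0.10, adjusted p = 0.0040), and without DKO1 replicate 4 the log2 fold changes were 0.58 (adjusted p = 4.1e-04) and 0.32 (adjusted p = 0.012). The rise of DKO1 over WT (0.29, SE 0.096, adjusted p = 0.021) was less secure. It was 0.20 (adjusted p = 0.082) without DKO1 replicate 4, 0.26 (adjusted p = 0.055) without WT replicate 1 and 0.25 (adjusted p = 0.060) without WT replicate 3. With quantile normalization it was 0.19 and with only the groups compared 0.29, neither called in limma (adjusted p = 0.11 for both). In ACSS2 KO the difference from WT was -0.13 (adjusted p = 0.38).

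*Cdkn1b*, which encodes p27, was lower in both ACLY-deficient genotypes. The libraries had 2396, 2756, 2542 and 2581 normalized counts in WT, 2160, 2045, 2076 and 2185 in ACLY KO, 2926, 2847 and 2889 in ACSS2 KO, and 2161, 2090 and 2270 in DKO1. ACLY KO and DKO1 overlapped each other and lay below all WT libraries, and ACSS2 KO lay above them. Against WT the mean fell by 17.6% in ACLY KO (log2 fold change -0.28, SE 0.054, adjusted p = 8.2e-04) and by 15.4% in DKO1 (-0.24, SE 0.059, adjusted p = 0.0036). DKO1 was below ACSS2 KO (log2 fold change -0.41, SE 0.063, adjusted p = 1.1e-04), while between DKO1 and ACLY KO the interval of the difference was -0.089 to 0.16. ACSS2 KO was higher than WT by 0.17 (SE 0.059, adjusted p = 0.048), but that call was lost on leaving out any of 12 of the 14 libraries (adjusted p between 0.054 and 0.14), all but DKO1 replicate 4 and WT replicate 2. After the transcript length correction the DKO1 calls were lost too, at -0.11 against WT (adjusted p = 0.32) and -0.25 against ACSS2 KO (adjusted p = 0.051). With only the groups compared, the call against WT was lost as well (adjusted p = 0.058).

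*Cdkn1c*, which encodes p57 from an imprinted gene, was listed at 1.12 in WT replicate 3, 2.07 in DKO1 replicate 1 and 0 in all other libraries. It was not tested. Of the 12 genes listed from the imprinted domain around it, 7 were tested. Among them the tetraspanin genes Cd81 and Tspan32 changed in ACLY KO against WT, by -1.48 (adjusted p = 1.9e-09) and 2.20 (adjusted p = 4.8e-06) on the log2 scale. DKO1 exceeded ACLY KO in Cd81 by 0.58 (adjusted p = 7.2e-05), and Nap1l4, a histone chaperone gene, was lower by 0.21 (log2 fold change -0.21, adjusted p = 0.016), a call lost without DKO1 replicate 1 (-0.16, adjusted p = 0.059).

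*Cdkn2b*, which encodes p15, was higher in both ACLY-deficient genotypes. It had 403, 584, 390 and 370 normalized counts in WT and 405, 371 and 385 in ACSS2 KO. It had 631, 611, 605 and 739 in ACLY KO and 610, 621 and 1307 in DKO1. All ACLY-deficient libraries lay above all ACLY-proficient ones, with WT replicate 2 nearest to them, and DKO1 replicate 4 stood far above the other DKO1 libraries. The mean was 1.48 times that of WT in ACLY KO (log2 fold change 0.59, SE 0.21, adjusted p = 0.038) and 1.94 times in DKO1 (0.88, SE 0.23, adjusted p = 0.0058). Without DKO1 replicate 4 the DKO1 difference was 0.52 (adjusted p = 0.0085), without WT replicate 2 the differences were 0.73 (adjusted p = 0.013) and 1.03 (adjusted p = 0.0022), and without both that library and WT replicate 2 ACLY KO differed from WT by 0.73 (adjusted p = 4.5e-07) and DKO1 by 0.67 (adjusted p = 8.0e-06). DKO1 against ACSS2 KO gave 1.03 (SE 0.25, adjusted p = 0.0035), or 0.67 on leaving out DKO1 replicate 4 (adjusted p = 0.0025). The call in ACLY KO was lost on leaving out WT replicate 1, 3 or 4 or any ACLY KO library, with adjusted p between 0.057 and 0.099 and log2 fold changes between 0.51 and 0.62. DKO1 and ACLY KO did not separate, with an interval of -0.21 to 0.80, and without DKO1 replicate 4 the estimate turned from 0.30 to -0.067 (adjusted p = 0.78).

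*Cdkn2a*, whose products are p16 and p19Arf, was called in none of the 5 comparisons. It had 1214, 1612, 1029 and 1050 normalized counts in WT, 1325, 1250, 1330 and 1528 in ACLY KO, and 1647, 1407 and 1402 in ACSS2 KO. In DKO1 it had 1026, 1274 and 3008. DKO1 thus held both the lowest and the highest value of all libraries, and its coefficient of variation was 61.0%, against 22.0% in WT, 8.75% in ACLY KO and 9.42% in ACSS2 KO. The interval of the log2 fold change of DKO1 against WT was -0.22 to 1 (adjusted p = 0.26). Without DKO1 replicate 4 the estimate turned to -0.077 (adjusted p = 0.70), while leaving out DKO1 replicate 1 gave 0.70 (adjusted p = 0.043), so the direction in DKO1 rested on single libraries. In the single knockouts the log2 fold changes were 0.17 (adjusted p = 0.64) and 0.30 (adjusted p = 0.50), and 0.31 (adjusted p = 0.39) and 0.44 (adjusted p = 0.33) without WT replicate 2. The same estimates passed the test without both DKO1 replicate 4 and WT replicate 2 (adjusted p = 0.0073 and 0.0018), as did -0.37 in DKO1 against ACSS2 KO (adjusted p = 0.0068), which was 0.092 with all libraries. After the transcript length correction *Cdkn2a* was called in ACSS2 KO against WT (0.405, adjusted p = 0.0068 in limma) and in DKO1 against ACSS2 KO (-0.38, adjusted p = 0.0088 in limma).

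*Cdkn2c*, which encodes p18, was highest in ACSS2 KO. Its means were 2215 ± 390 (SD, n = 4) in WT, 1788 ± 68.1 (n = 4) in ACLY KO, 2696 ± 163 (n = 3) in ACSS2 KO and 1749 ± 312 (n = 3) in DKO1. The libraries of DKO1 (1577, 1561 and 2110) lay below those of ACSS2 KO (2875, 2558 and 2654), with a log2 fold change of -0.64 (SE 0.14, adjusted p = 0.0017), or -0.78 on leaving out DKO1 replicate 4 (adjusted p = 1.2e-04). DKO1 was also lower than WT (-0.34, SE 0.13, adjusted p = 0.040), with -0.48 (adjusted p = 0.0029) without DKO1 replicate 4 and -0.23 (adjusted p = 0.095) without WT replicate 2. That call was lost on leaving out any of 9 libraries, WT replicates 1 and 2, ACLY KO replicates 1 to 3, ACSS2 KO replicates 2 and 4 and DKO1 replicates 1 and 3, with adjusted p from 0.050 to 0.15. ACLY KO against WT gave -0.29 (adjusted p = 0.059) and ACSS2 KO against WT gave 0.30 (adjusted p = 0.12). Leaving out WT replicate 2 gave -0.18 (adjusted p = 0.17) for the first and 0.41 (adjusted p = 0.018) for the second, and without both libraries that stood apart the same estimates had adjusted p of 0.013 and 1.1e-04 in limma. After the transcript length correction ACLY KO (-0.28, adjusted p = 0.015) and ACSS2 KO (0.295, adjusted p = 0.029) were both called against WT in limma. With only the groups compared ACLY KO was called against WT (-0.29, adjusted p = 0.041 in limma), while DKO1 was not (-0.34, adjusted p = 0.15).

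*Cdkn2d*, which encodes p19INK4d, had 737 ± 138 normalized counts (SD, n = 4) in WT, 557 ± 50.7 (n = 4) in ACLY KO, 627 ± 36.6 (n = 3) in ACSS2 KO and 630 ± 191 (n = 3) in DKO1. It was called in none of the 5 comparisons. All ACLY KO libraries (509 to 621) lay below all WT libraries (628 to 936), yet the log2 fold change of -0.39 had an adjusted p of 0.060 in limma. It became a call without DKO1 replicate 4, at the same estimate (adjusted p = 0.0070), and without WT replicate 4 it was -0.46 (adjusted p = 0.046). With only the groups compared it was also called, at the same estimate (adjusted p = 0.022 in limma). Without WT replicate 2 it was -0.27 (adjusted p = 0.17), an estimate that passed without both libraries (adjusted p = 0.0050). DKO1 against WT gave -0.25 (adjusted p = 0.24), or -0.49 on leaving out DKO1 replicate 4 (adjusted p = 0.0063), which had 850 against 526 and 513. Without WT replicate 2 it was -0.13 (adjusted p = 0.52), and without both -0.37 (adjusted p = 0.0021). After the transcript length correction *Cdkn2d* was called in ACLY KO against WT (-0.435, adjusted p = 4.1e-05 in limma). It was then also called in DKO1 against WT (-0.48, adjusted p = 3.1e-05 in limma) and against ACSS2 KO (-0.33, adjusted p = 0.0014 in limma).

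The effect of losing ACSS2 was next compared between WT cells and ACLY KO cells. For this, the difference of ACSS2 KO from WT was set against that of DKO1 from ACLY KO in an interaction test, which called 27.1% of all genes (12% positive, 15.1% negative) and 2 of 9 members (1 positive, 1 negative). The study's limits called 4.61% of genes and 0 members. *Ccnd2* had a log2 fold change of 0.16 (interval -0.038 to 0.35) in WT cells and -0.83 (interval -1.03 to -0.63) in ACLY KO cells, a difference of -0.99 (SE 0.13, adjusted p = 9.6e-05). *Cdkn1a* had -0.13 (interval -0.33 to 0.081) and 0.67 (interval 0.47 to 0.88), a difference of 0.80 (SE 0.14, adjusted p = 7.6e-04). Both calls held in the 24 alternatives other than the study's limits, with differences between -1.14 and -0.77 for *Ccnd2* and between 0.65 and 0.92 for *Cdkn1a*. *Ccnd1* fell in both settings, and the difference of -0.20 (interval -0.38 to -0.019) had an adjusted p of 0.097. It was -0.42 (adjusted p = 0.021) with quantile normalization and -0.35 (adjusted p = 0.041) with equal library totals. *Ccnd3* differed by -0.29 (adjusted p = 0.082), and by -0.38 (adjusted p = 0.0046) without DKO1 replicate 4. *Cdkn2c* differed by -0.34 (adjusted p = 0.19), by -0.49 (adjusted p = 0.028) without DKO1 replicate 4 and by -0.45 (adjusted p = 0.047) without WT replicate 2. The remaining 4 members had adjusted p between 0.26 and 0.91.

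**Figure D4:**
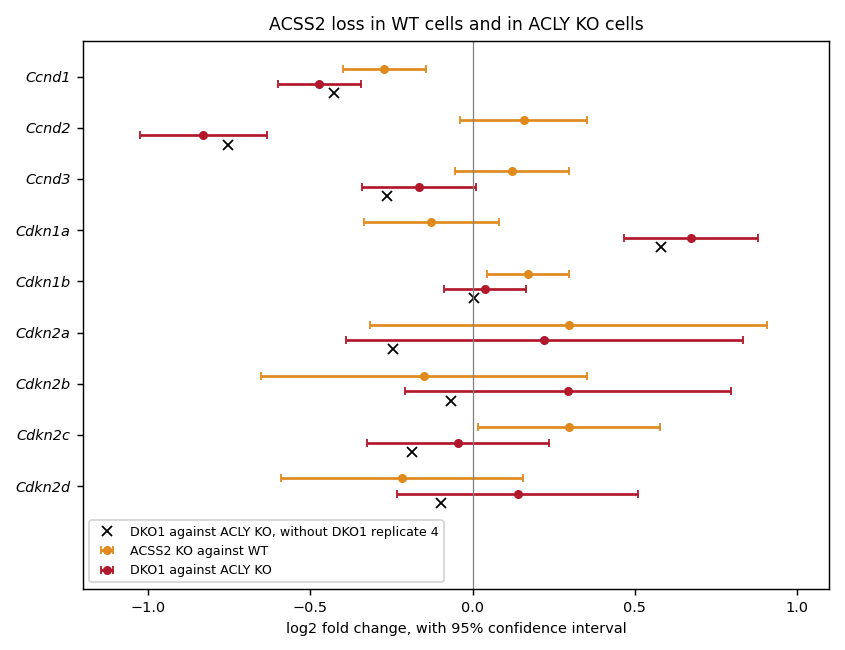
Log2 fold changes with 95% confidence intervals of the 9 members on ACSS2 loss in WT cells (ACSS2 KO against WT) and in ACLY KO cells (DKO1 against ACLY KO), with crosses for the latter without DKO1 replicate 4. The intervals do not overlap for Ccnd2 and Cdkn1a, and the crosses lie on the other side of 0 from the full estimate for Cdkn2a, Cdkn2b and Cdkn2d.

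Genes near each member on the chromosome were examined next. Within 5 Mb of *Ccnd2* 71 other genes were tested, with a median log2 fold change of DKO1 against ACLY KO of 0.019 and quartiles of -0.28 and 0.19. Only 5 of them were lower than *Ccnd2*. Within 5 Mb of *Ccnd1* the median of 75 genes was 0.069, and 12 were lower than *Ccnd1*. Within 5 Mb of *Cdkn1a* the median of 189 genes was 0.076, and 10 were higher than *Cdkn1a*. The changes of these 3 members were thus larger than the middle of their surroundings, which is a description without a test. For *Cdkn2b* the 18 neighbors had a median of 0.057 in ACLY KO against WT, and 2 were higher. Of the 4 genes listed nearest to *Cdkn2a* and *Cdkn2b*, 2 were tested. Mtap, the methionine salvage gene beside *Cdkn2a*, was lower in ACLY KO than in WT by 0.16 (log2 fold change -0.16, adjusted p = 0.014) and lower in DKO1 than in ACLY KO (-0.26, adjusted p = 0.0024), the direction opposite to *Cdkn2b* in ACLY KO. The ACLY KO difference of Mtap was -0.077 (adjusted p = 0.22) with quantile normalization and -0.049 (adjusted p = 0.49) with equal library totals. Mtap was also lower in ACSS2 KO than in WT (-0.25, adjusted p = 0.0029 in limma).

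The genes whose profile over all 14 libraries lay nearest to that of a member were found by the root mean square difference of centered log2 values. For *Ccnd2* these were Gtf2ird1 (0.098), Afap1l1 (0.12) and Glis2 (0.13), with Gtf2ird1 at 1510 normalized counts in WT and 822 in DKO1. For *Ccnd1* they were Gart (0.070), Ergic1 (0.070) and Tm9sf3 (0.075). For *Cdkn2b* they were Pmm1 (0.082), Ndufa6 (0.083) and Pla2g12a (0.085), whose means, such as 867 in WT and 1728 in DKO1 for Ndufa6, include the high DKO1 replicate 4.

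The partners and targets of the members were examined as lists, which are described by their counts and medians. The counts are to be read beside the shares of all genes tested that were called. These were 23.8% higher and 24.7% lower in ACLY KO against WT and 27.9% higher and 28.1% lower in DKO1 against WT. In DKO1 against ACLY KO they were 14.3% higher and 13.6% lower. Among the 10 G1/S kinases and cyclins, 0 were higher and 4 lower in ACLY KO than in WT (median log2 fold change -0.19, against -0.0067 for all genes), and 0 were higher and 6 lower in DKO1 than in WT (median -0.34). DKO1 against ACLY KO gave 0 higher and 2 lower (median -0.12). Ccna2, the S phase cyclin, fell in ACLY KO by 0.67 on the log2 scale (log2 fold change -0.67, adjusted p = 3.4e-07), as did Cdk2, its kinase (-0.46, adjusted p = 4.4e-06), and Cdc25a, the phosphatase that activates CDK2 (-0.23, adjusted p = 0.011). With equal library totals the Cdc25a difference was -0.12 (adjusted p = 0.27). In ACSS2 KO against WT Ccna2 (-0.50, adjusted p = 3.9e-05 in limma) and Cdc25a (-0.41, adjusted p = 0.0011) were lower too. Cdk2 was higher there (0.77, adjusted p = 4.7e-07 in limma). Cdc25a was lower again in DKO1 than in ACLY KO (-0.29, adjusted p = 0.011). Ccna2 was too, at -0.17 (adjusted p = 0.040), a call lost on leaving out any of 10 libraries (all but WT replicates 1 and 2, ACLY KO replicate 1 and DKO1 replicate 4). The direct kinase partners of the D-type cyclins, named in addition after their values were seen, were Cdk4, at 10620 ± 1820 normalized counts (SD, n = 4) in WT and 10640 ± 3410 (n = 3) in DKO1, and Cdk6, at 8015 ± 1390 and 5621 ± 1240. For Cdk4 the DKO1 libraries had 8282, 9100 and 14550, so 1 high library raised the DKO1 mean. The WT values of Cdk4 ran from 9229 to 13230, with a median of 10020.

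Of 17 RB family, E2F and DREAM complex genes, 0 were higher and 6 lower in ACLY KO than in WT (median -0.21), and 1 was higher and 9 lower in DKO1 than in WT (median -0.23). DKO1 against ACLY KO gave 0 higher and 4 lower (median -0.215). Tfdp1, the dimerization partner of E2F proteins, fell from 7747 ± 342 normalized counts (SD, n = 4) in WT to 4607 ± 18.2 (n = 4) in ACLY KO (log2 fold change -0.75, adjusted p = 6.8e-08), and to 3770 ± 151 (n = 3) in DKO1 (-0.29 against ACLY KO, adjusted p = 0.0016). E2f3, an activating E2F, and E2f6, a repressing one, fell in ACLY KO by similar amounts (-0.77 and -0.73, adjusted p = 1.6e-07 and 2.3e-05). In ACSS2 KO Tfdp1 and E2f3 were also below WT (-0.26 and -0.21, adjusted p = 0.0034 and 0.025 in limma). E2f6 was not called there (-0.091, adjusted p = 0.57). E2f4, the main E2F of resting cells, fell from ACLY KO to DKO1 (-0.41, adjusted p = 6.5e-05), and so did Lin9, a DREAM and MuvB subunit (-0.25, adjusted p = 0.014). With only the groups compared, the limma calls in DKO1 against ACLY KO were lost for Cdc25a (adjusted p = 0.074), Ccna2 (0.13), Lin9 (0.079) and Nap1l4 (0.097). The same held for the genes Ccnb1 (0.052), Top2a (0.14), Rnf123 (0.13), Cbx8 (0.088) and Jarid2 (0.051) described below. Of 5 proliferation markers, 0 were higher and 3 lower in ACLY KO than in WT (median -0.49), 0 and 4 in DKO1 than in WT (median -0.77), and 0 and 3 in DKO1 than in ACLY KO (median -0.29). The replication helicase gene Mcm2 was lower at both steps (-0.63 and -0.54, adjusted p = 1.8e-06 and 6.2e-05), and so was the mitotic cyclin gene Ccnb1 (-0.37 and -0.25, adjusted p = 5.8e-05 and 0.0056). For the topoisomerase gene Top2a the values were -0.53 (adjusted p = 0.0040) and -0.40 (adjusted p = 0.048), of which the first was -0.37 (adjusted p = 0.085) with quantile normalization and the second was no longer called without DKO1 replicate 4 or without any of 10 other libraries. In ACSS2 KO against WT Ccnb1 was lower (-0.21, adjusted p = 0.015 in limma). Mcm2 (-0.11, adjusted p = 0.25) and Top2a (0.17, adjusted p = 0.41) were not called there.

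The p53 list was mixed. Of 22 genes, 4 were higher and 6 lower in ACLY KO than in WT (median -0.052), and 2 were higher and 3 lower in DKO1 than in ACLY KO (median -0.079). DKO1 against WT gave 6 higher and 7 lower (median -0.0613). The sestrin genes Sesn1 and Sesn2 rose in ACLY KO (log2 fold changes 0.85 and 1.40, adjusted p = 1.8e-06 and 6.9e-06), and the pro-apoptotic gene Pmaip1 fell (-0.70, adjusted p = 5.2e-06). In ACSS2 KO against WT Sesn1, Sesn2 and Pmaip1 all rose (0.31, 1.815 and 0.27, adjusted p = 0.018, 5.6e-06 and 0.027 in limma). In DKO1 against ACLY KO the cyclin G1 gene Ccng1 rose (0.44, adjusted p = 3.6e-04), as *Cdkn1a* did, whereas the kinase gene Plk2 and the death receptor gene Fas fell (-0.49 and -1.55, adjusted p = 6.4e-05 and 7.4e-04). Trp53 itself, also named after its values were seen, had 2064 ± 203 normalized counts (SD, n = 4) in ACLY KO and 2196 ± 352 (n = 3) in DKO1.

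Levels of cyclin D and p27 proteins are also set by ubiquitin ligases and by the kinase encoded by Gsk3b, which were measured here only as mRNA. Of 13 genes of protein turnover, 3 were higher and 2 lower in ACLY KO than in WT (median 0.13), and 0 were higher and 3 lower in DKO1 than in ACLY KO (median -0.062). DKO1 against WT gave 2 higher and 5 lower (median -0.189). Skp2, which directs p27 to degradation, rose from 2017 ± 118 normalized counts (SD, n = 4) in WT to 2944 ± 130 (n = 4) in ACLY KO (log2 fold change 0.55, adjusted p = 1.8e-04) and fell to 1717 ± 245 (n = 3) in DKO1 (-0.79 against ACLY KO, adjusted p = 6.1e-05). Fbxo4, an F-box gene linked to cyclin D1 turnover, rose in ACLY KO (0.99, adjusted p = 1.7e-05), and the cullin gene Cul1 fell (-0.48, adjusted p = 0.0026). Dtl, a substrate receptor for p21, fell from ACLY KO to DKO1 (-0.59, adjusted p = 9.5e-04), and Rnf123, which encodes a ligase subunit for p27, fell too (-0.44, adjusted p = 0.032), a call lost without DKO1 replicate 4 or any of the ACLY KO libraries.

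Of 12 Polycomb and INK4/ARF locus regulators, 1 was higher and 8 lower in ACLY KO than in WT (median -0.31), and 3 were higher and 1 lower in DKO1 than in ACLY KO (median 0.042). DKO1 against WT gave 1 higher and 5 lower (median -0.253). Polycomb complexes are known as repressors of the locus that holds *Cdkn2a* and *Cdkn2b*. Cbx7, a reader of the repressive mark, fell from 187 ± 14.7 normalized counts (SD, n = 4) in WT to 77.4 ± 4.45 (n = 4) in ACLY KO (log2 fold change -1.26, adjusted p = 3.5e-08) and was at 116 ± 5.01 (n = 3) in DKO1 (0.58 against ACLY KO, adjusted p = 2.6e-04). Ezh2, the methyltransferase, fell in ACLY KO (-0.86, adjusted p = 1.2e-06), and so did the Polycomb group gene Pcgf2 (-0.46, adjusted p = 2.3e-04). Jarid2, a cofactor of the same complex as Ezh2, rose from ACLY KO to DKO1 (0.49, adjusted p = 0.0088), and so did Cbx8 (0.69, adjusted p = 0.020), a call lost without ACLY KO replicate 1 (0.63, adjusted p = 0.056).

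The last list held transcription factors that carry growth signals to these genes. Of 22 tested of 23, 2 were higher and 7 lower in ACLY KO than in WT (median -0.13), and 4 were higher and 3 lower in DKO1 than in ACLY KO (median 0.029). DKO1 against WT gave 5 higher and 12 lower (median -0.319). Klf6, Mycl and Egr1 fell in ACLY KO (log2 fold changes -1.29, -2.39 and -1.40, adjusted p = 3.7e-09, 1.1e-06 and 2.3e-06). In ACSS2 KO against WT Klf6 was lower too (-0.59, adjusted p = 3.5e-05 in limma). Mycl (0.71, adjusted p = 0.040) and Egr1 (1.06, adjusted p = 1.7e-04) were higher there. Klf6, a Krüppel-like factor, rose again in DKO1 (0.66 against ACLY KO, adjusted p = 1.6e-05). Mycn, the N-Myc gene, fell from 89.4 ± 11.5 normalized counts (SD, n = 4) in ACLY KO to 40.1 ± 8.18 (n = 3) in DKO1 (-1.15, adjusted p = 6.8e-05). Foxo1, a factor that represses D-type cyclins and induces p27, fell from ACLY KO to DKO1 (-0.41, adjusted p = 5.8e-04), but not after the transcript length correction (-0.20, adjusted p = 0.36).

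**Figure D5:**
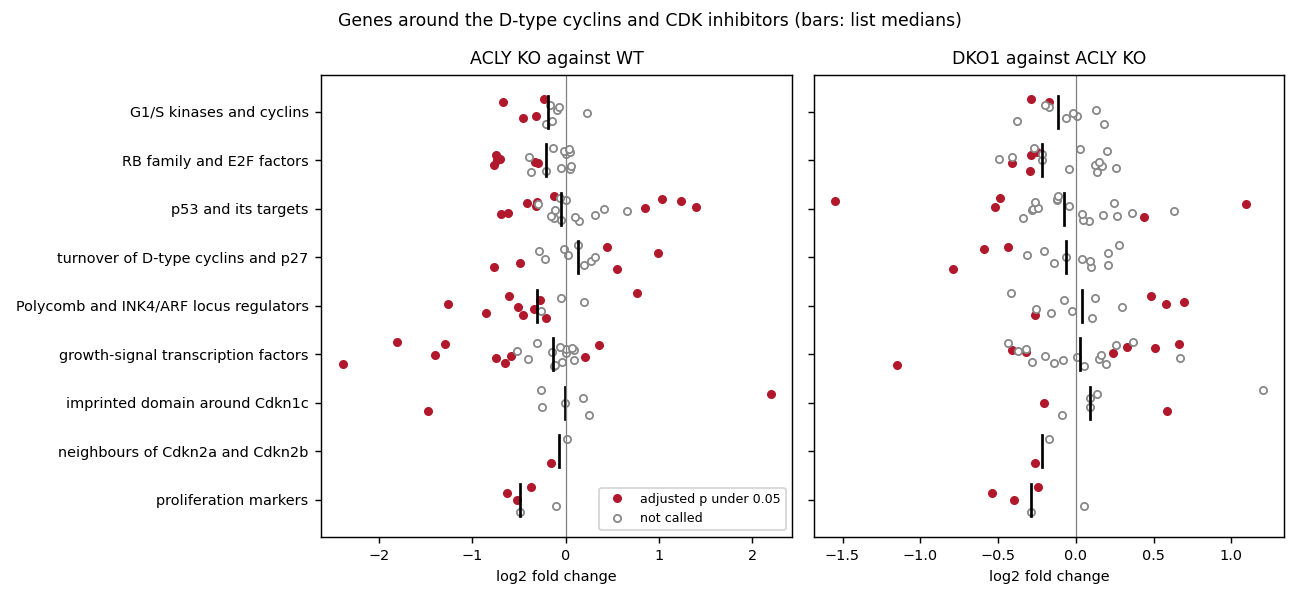
Log2 fold changes of the listed genes in ACLY KO against WT (left) and DKO1 against ACLY KO (right), one line of points per list, filled where the adjusted p-value was under 0.05 and open otherwise, with a bar at the list median. The Polycomb list lies mostly below 0 on the left (median -0.31) and around 0 on the right (median 0.042), and the proliferation markers lie mostly below 0 in both.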

How the data were processed

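RNA was taken from mouse HCC cells of 4 genotypes, and poly(A) libraries were made with a directional kit and sequenced from one end. The authors aligned the reads with STAR to GRCm38 (mm10) and deposited gene-level counts normalized by DESeq, which are treated here as a signal since they are not whole reads. How reads were assigned to genes, by which annotation and with which strand setting is not given in the sources used here, so overlapping and antisense transcripts cannot be told apart.

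Values were taken as log2(value + 1) and fitted with limma 3.58.1 (R 4.3.3) with an intensity trend, over all 14 libraries with a coefficient for each genotype, for the 12711 genes with a mean of at least 10. P-values are two-sided and were adjusted by Benjamini-Hochberg over these genes, and a gene was called under 0.05. The fit was tested on simulated data made from the real means, with 200 genes changed by 1 on the log2 scale in DKO1. It called 152 of these in DKO1 against WT, with 5 unchanged genes, and 113 in the interaction, with 3 unchanged genes. The simulated noise was drawn independently for each gene, so the simulation did not carry the trend with transcript length. Fold changes on the log2(value + 1) scale understate the change of low genes. Values per kilobase used GENCODE vM21 lengths. The transcript length correction removed, library by library, a spline in length (5 degrees of freedom) fitted over 12577 genes. No 2 libraries were duplicates, and 26 symbols appear as dates in the table.

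The members and lists were chosen with earlier results of these data known. Besides the members, the rule named for each list the 3 genes of lowest adjusted p in ACLY KO against WT and in DKO1 against ACLY KO, of which those called are given, the 3 genes nearest in profile to each of the 3 members with the widest range, and Acly and Acss2. The alternatives were the study's limits, and 25 others with other pseudocounts, filters or scalings, a fit without the trend or with only the groups compared, a replicate block, the length correction, and the fit without single libraries. Depth limits precision through the number of reads behind each normalized count, and low values such as those of Cdkn1c rest on very few reads.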

Additional observations from a re-analysis of the deposited data

Results flagged for a closer look

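Among the 4 WT libraries the *Cdkn2b* value of replicate 2 (584 normalized counts) stood far from the others (370 to 403). Its gap to the nearest library was 0.842 of the range of the group, above Dixon's 95% critical value for 4 values. Of the 9 members tested no other passed in WT or ACLY KO, and chance alone passes about 1 in 20 groups. WT replicate 2 is one of the libraries that stood apart by transcript length.

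The difference made by ACSS2 loss was not the same in ACLY KO cells as in WT cells for *Ccnd2* (interaction of -0.987 on the log2 scale, adjusted p = 9.6e-05 in limma). The same held for *Cdkn1a* in the opposite direction (interaction of 0.80, adjusted p = 7.6e-04 in limma). In *Ccnd2* all 3 DKO1 libraries lay below all 4 ACLY KO libraries, and in *Cdkn1a* all 3 lay above them. ACSS2 KO and DKO1 were each a single clone, and genotype and clone cannot be told apart.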

How the results depend on the processing

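Over 25 alternatives (24 for the interaction), which leave out the study's limits, 1210 member fold changes kept their direction and side of the threshold, 56 became calls in the same direction, 48 lost theirs and 27 changed sign. None of the last was a call in the reported fit, and 2 became calls in the new direction. The number of members called was 4 in ACLY KO against WT (3 to 6 on leaving out single libraries), 2 in ACSS2 KO against WT (1 to 3), 6 in DKO1 against WT (4 to 7), 3 in DKO1 against ACLY KO (3 to 4), 6 in DKO1 against ACSS2 KO (6 to 7) and 2 in the interaction (2 to 4, with 4 without DKO1 replicate 4). The share of all genes called moved too on leaving out single libraries. Against WT it was 43.5% to 61.6% in ACLY KO, 18.4% to 40.2% in ACSS2 KO and 50.4% to 61.3% in DKO1. It was 21.6% to 32% in DKO1 against ACLY KO, 45.5% to 57.9% against ACSS2 KO and 20.7% to 33.6% in the interaction. Without both DKO1 replicate 4 and WT replicate 2 the number of members was 8 in ACLY KO against WT, 4 in ACSS2 KO against WT, 5 in DKO1 against ACLY KO and 6 in the interaction. Calls rose over all genes as well, to 69%, 48.1%, 43.4% and 44.3% in the same order. Under the study's limits the number of members was 0 in all 6. In ACSS2 KO against WT it was 1 with no filter, with no intensity trend, with only the groups compared and with the replicate block, and 4 with the length correction. The shares of all genes called there were 16.5%, 25.8%, 31.8%, 23% and 40.2%. In DKO1 against WT 3 members were called with only the groups compared (40.9% of all genes). The interaction called 6 members with equal library totals (27.2% of all genes) and 4 with the length correction (39%). The causes were not tested.

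Signs changed for members not called in the reported fit. In DKO1 against ACLY KO *Cdkn1b* was -0.00702 with equal library totals, *Cdkn2a* -0.0717 and *Cdkn2d* -0.0455 with the length correction, and *Cdkn2a* -0.244, *Cdkn2b* -0.0666 and *Cdkn2d* -0.097 without both libraries. In DKO1 against ACSS2 KO *Cdkn2d* was 0.0731 with the replicate block and 0.00686 with quantile normalization, and *Cdkn2a* -0.379 with the length correction and -0.373 without both libraries, both called (adjusted p = 0.0088 and 0.0068 in limma). In the interaction *Cdkn2a* was 0.0234 with the block, *Cdkn1b* 0.00414 with the length correction and *Cdkn2b* -0.0649 without both, where *Cdkn2a* was -0.68 and called (adjusted p = 0.0013 in limma; leaving out single libraries gave *Cdkn2b* 0.083 to 0.632). Leaving out single libraries gave *Cdkn2a* -0.0768 to 0.699 in DKO1 against WT, -0.244 to 0.531 against ACLY KO, -0.373 to 0.402 against ACSS2 KO and -0.541 to 0.235 in the interaction. In DKO1 against ACLY KO it gave -0.188 to 0.0295 for *Cdkn2c*, -0.0666 to 0.482 for *Cdkn2b* and -0.097 to 0.266 for *Cdkn2d*, and for *Cdkn2d* against ACSS2 KO -0.268 to 0.095.

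Deviations of same-numbered libraries correlated from -0.431 to 0.447, positively for number 3 in all its pairs (0.198 to 0.369) and for all numbers between ACLY KO and DKO1 (0.0554 to 0.447), and 6 of 14 libraries were nearest to their own number. In no 2 genotypes were all correlations above 0.1, so the numbers were not taken to pair the samples. With the number as a replicate block, *Cdkn1b* in ACSS2 KO against WT (adjusted p = 0.12) and *Cdkn2c* in DKO1 against WT (adjusted p = 0.087) were no longer called in limma. Over all genes the block called 2927 in ACSS2 KO against WT and 3126 in DKO1 against ACLY KO, against 3311 and 3550 without it. With only the groups compared DKO1 against ACLY KO called 2231 genes. Without both libraries 6096 genes were called in ACSS2 KO against WT, 5511 in DKO1 against ACLY KO and 5615 in the interaction (3442 in the reported fit). In ACSS2 KO against WT 5054 were called with the length correction and 5095 without DKO1 replicate 4. Equal library totals moved the share of higher among called genes from 49% to 61.9% in ACLY KO against WT, from 57.8% to 75.9% in ACSS2 KO against WT and from 44.3% to 28.1% in the interaction.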
